A study of Mus musculus with 12 samples.

Results

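Chemokines are small secreted proteins that guide leukocytes, and chemokine receptors are the G protein-coupled receptors that read them. The family was taken by name: every gene whose single platform symbol starts with Ccl, Cxcl, Cx3cl or Xcl (ligands) or with Ccr, Cxcr, Cx3cr or Ackr (receptors), each followed by a number. This gave 53 genes, 33 ligands and 20 receptors, of 18194 genes on the array. Each gene is represented by its brightest probe set over all 12 arrays. Of the 53, 43 were bright enough to be tested (30 ligands and 13 receptors).

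The 12 arrays fell into 3 groups of 4, with replicas A to D in each. Acini were freshly isolated exocrine acini of mouse pancreas, which were not cultured. Ducts were native ductal organoids, grown from duct fragments in Matrigel with pancreatic organoid medium. yDucts were organoids grown in the same matrix and medium from acini of adult R26-rtTA; tetO-YAP S127A mice, in which doxycycline switches on an activated form of YAP, the coactivator that Hippo signalling restrains. Doxycycline was a pulse, and yDucts were later propagated without it. The rtTA activator sits in the ubiquitous Rosa26 locus, so it is not limited to acinar cells. The genotype of the mice behind Acini and Ducts, and whether the 4 replicas of a group came from separate animals or separate cultures, are not stated in the labels. The labels call the replicas biological. The p-values measure how these arrays vary.

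Chemokines divide by the spacing of their first cysteines into CXC, CC, CX3C and XC families. CXC ligands with a Glu-Leu-Arg (ELR) motif attract neutrophils through Cxcr2, interferon-inducible CXC ligands attract T cells through Cxcr3, and Ccl2 attracts monocytes through Ccr2. Epithelial cells and acinar cells of the pancreas are known sources of ELR ligands and Ccl2 when NF-kB is active, as in pancreatitis, whereas most of the signalling receptors are made by leukocytes. Atypical receptors (Ackr) bind chemokines without G protein signalling and clear or present them.

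Of the members described below, Cxcl1, Cxcl2 and Cxcl3 lie side by side with Cxcl15, and close to Cxcl5, on chromosome 5. The promoters of Cxcl1, Cxcl2 and Cxcl3 are shown because these ligands share an identical stretch there. Against Acini, Cxcl3 was called higher in both kinds of organoid, while Cxcl1 and Cxcl2 were not called. Cxcl3 was bright enough to be tested through organoid arrays alone, so it was bound to read higher there. Within Ducts, Cxcl1, Cxcl2 and Cxcl3 all read higher on arrays A and B than on C and D. The promoter of Ccl20, which was higher in both kinds of organoid than in Acini, and that of Cxcl10, which was lower, are set beside those of Cxcl1, Cxcl2 and Cxcl3. Each line holds the 250 bases before the RefSeq gene start, 5′ to 3′ on the strand of the gene (assembly GRCm38.p6), and capitals mark matches to the NF-kB (kB site) consensus on either strand, with overlapping matches joined.
Cxcl3, chr5:90785851-90786100, plus strand: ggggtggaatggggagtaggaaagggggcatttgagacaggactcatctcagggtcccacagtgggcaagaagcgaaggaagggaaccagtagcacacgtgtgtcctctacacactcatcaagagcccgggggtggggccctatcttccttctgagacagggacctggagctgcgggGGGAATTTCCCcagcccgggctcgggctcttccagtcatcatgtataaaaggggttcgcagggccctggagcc
Cxcl1, chr5:90890995-90891244, plus strand: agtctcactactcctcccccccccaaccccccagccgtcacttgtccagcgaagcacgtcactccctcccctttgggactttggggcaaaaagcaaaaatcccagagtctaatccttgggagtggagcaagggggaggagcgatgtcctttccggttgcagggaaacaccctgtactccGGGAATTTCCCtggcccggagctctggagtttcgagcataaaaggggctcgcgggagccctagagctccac
Cxcl2, chr5:90903649-90903898, plus strand: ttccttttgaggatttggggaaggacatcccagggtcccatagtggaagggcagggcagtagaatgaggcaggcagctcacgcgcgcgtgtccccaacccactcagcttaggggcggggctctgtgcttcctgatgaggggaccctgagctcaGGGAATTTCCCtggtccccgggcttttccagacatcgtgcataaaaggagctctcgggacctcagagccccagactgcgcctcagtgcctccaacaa
Ccl20, chr1:83116516-83116765, plus strand: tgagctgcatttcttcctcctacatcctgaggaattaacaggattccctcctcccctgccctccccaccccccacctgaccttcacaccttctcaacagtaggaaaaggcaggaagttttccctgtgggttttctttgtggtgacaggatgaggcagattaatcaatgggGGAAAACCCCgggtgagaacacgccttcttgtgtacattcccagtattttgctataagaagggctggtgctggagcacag
Cxcl10, chr5:92348890-92349139, minus strand: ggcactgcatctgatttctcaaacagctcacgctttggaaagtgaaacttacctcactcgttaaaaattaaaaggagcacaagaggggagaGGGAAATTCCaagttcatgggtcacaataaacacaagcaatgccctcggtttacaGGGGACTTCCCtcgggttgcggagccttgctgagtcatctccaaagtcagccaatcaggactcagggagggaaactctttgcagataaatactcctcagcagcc

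The stretch GGGAATTTCCC starts 73 bases before the gene start in Cxcl3, 71 bases before it in Cxcl1 and 97 bases before it in Cxcl2. It occurs, on either strand, in 14 of 32851 mouse promoter windows of this length (0.0426%), and among members with a window only in these 3. Cxcl5, Ccl2 and Cxcl16 are among the members without a window, so their promoters were not searched. The wider kB consensus matched 7.25% of all windows, and at least one window of 11 of the 40 members that have one. Of these 11, 9 were tested. In Ducts and in yDucts alike 2 were higher than in Acini (Cxcl3 and Ccl20), 5 were lower and 2 were not called (Cxcl1 and Cxcl2). Cxcl3, tested through organoid arrays alone, was bound to fall on the higher side. Among all 43 tested members, 8 were higher and 26 lower in Ducts, and 9 and 27 in yDucts. Over all tested genes 42.7% were higher and 33.1% lower in Ducts, and 43.6% and 32.6% in yDucts. The letters TGANTCA (AP-1) were found in 5 of the 40 members and 6.75% of all windows, and GGAATG (TEAD, the DNA-binding partner of YAP) in 6 members and 12.6% of windows, both strands searched. A match is a run of letters, not a measured binding site.

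Some properties of the arrays touch all comparisons. All Acini arrays read higher in the low range, with a 30th percentile of 3.72 ± 0.06 (log2, mean ± SD, n = 4), while Ducts had 3.21 ± 0.02 and yDucts 3.20 ± 0.01. Their Gapdh control probe sets read 1.53 ± 0.29 higher at the 3′ than at the 5′ end, against -0.04 ± 0.04 and -0.15 ± 0.02. Acini also differ from both organoid groups in being uncultured and in holding other cells. Of 24 leukocyte markers, 21 were tested, and 17 were lower in Ducts and 17 in yDucts than in Acini, among them C1qb, Lyz2 and Cd74. All 11 tested endothelial markers and all 12 stromal markers were lower in both. Of all tested genes 33.1% were lower in Ducts and 32.6% in yDucts. Some markers, C1qb, Emcn and Col3a1 among them, were bright enough to be tested through Acini alone, so they were bound to read lower in organoids. The mean level of the tested leukocyte markers ran from 5.39 to 5.83 over the Acini arrays, from 4.22 to 4.85 over Ducts and from 4.36 to 4.43 over yDucts. For endothelial markers these ranges were 6.43 to 6.92, 3.77 to 4.09 and 3.92 to 4.04, and for stromal markers 6.98 to 7.62, 3.32 to 3.50 and 3.42 to 3.53. At or below the 30th percentile on every array of a group lay 5 leukocyte, 5 endothelial and 3 stromal markers in Ducts, and the same numbers in yDucts. Identity checks followed the labels, with the acinar enzyme Cpa1 at 14.57 to 14.60 in Acini and at most 3.45 in organoids, and the duct keratin Krt7 at 5.22 to 6.48 in Acini and at least 11.87 in organoids. Tissue, culture, cell mixture and RNA quality cannot be told apart in any difference from Acini, and in these bulk samples neither can fewer cells of a type and less RNA per cell.

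Among the Ducts arrays, A and B stood apart from C and D in the chemokines. Of the 43 tested members, 8 (18.6%) spanned more than 2 log2 units within Ducts, against 5.48% of all 14991 tested genes, and in all 8 both A and B lay above C and D. All 8 were ligands: Cxcl1, Cxcl2, Cxcl3, Cxcl5, Ccl2, Ccl20, Ccl28 and Cxcl17. Among all genes tested, 822 had such a span, and 503 of these had A and B above and 160 had them below. Within Acini 1 tested member, Ccl20, spanned as much, against 2.14% of all tested genes. Ccl11, which was not tested, spanned 2.57 there. The labels give no reason for the split in Ducts, so results that rest on it are given with and without these arrays. The pairs were picked from these same values, and leaving a pair out takes away the spread between them. Calls gained or lost that way describe the split and are not tests of it.

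**Figure D1:**
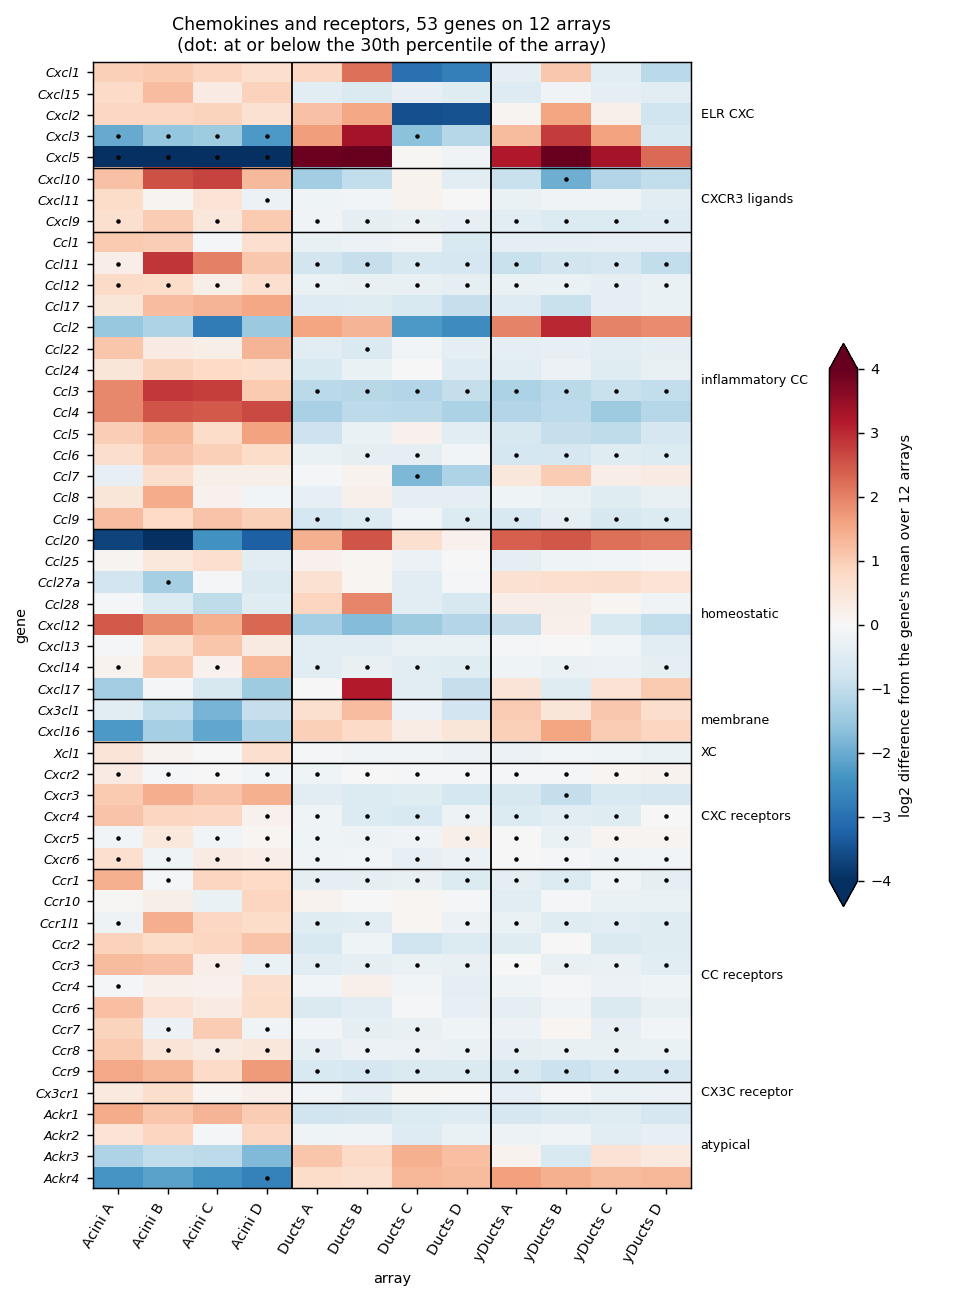
Log2 expression of all 53 members on the 12 arrays as the difference from the mean of each gene over the arrays (colour, ends at 4 units either way, so that levels are not compared between genes), with members ordered by role. Dots mark values at or below the 30th percentile of the array; most rows are red over Acini, while Ccl20, Cxcl16 and Ackr4 are red over all organoid arrays, and Cxcl1, Cxcl2, Cxcl3, Cxcl5 and Ccl2 are redder on Ducts A and B than on Ducts C and D.

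Compared with Acini, most tested chemokine genes were lower in both kinds of organoid and a few ligands were much higher. In Ducts, 8 of 43 members were higher and 26 were lower (limma, adjusted p under 0.05), and 9 were not called. Over all tested genes 42.7% were higher and 33.1% lower, or 75.7% called. In yDucts, 9 members were higher, 27 lower and 7 not called, against 43.6% higher and 32.6% lower of all genes, or 76.2% called. The median difference of the members was -0.93 in Ducts and -0.80 in yDucts (log2), against 0.20 and 0.24 over all tested genes. Values did not overlap with those of Acini for 27 members in Ducts and for 33 in yDucts, or 62.8% and 76.7% of those tested, close to the 64.5% and 71.7% among all genes. Both comparisons use the same Acini arrays.

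The low range bears on the lower members. Of the 26 lower in Ducts, 7 had an Acini mean under the median of the Acini arrays, as did 8 of the 27 lower in yDucts. At or below the 30th percentile on every array of the organoid group were 3 of the 26 in Ducts and 5 of the 27 in yDucts. Both counts of lower members include Ccl3 and Ccr9, which passed the filter through Acini alone. Both counts of higher members include Cxcl5 and Cxcl3, which passed it through organoid arrays alone. Scaling the arrays anew moved the median of all genes from 0.20 to -0.15 (quantile), -0.17 (cyclic loess) or 0.41 (centring on the median) for Ducts, and the higher share of all called genes from 56.3% to 44.0%, 41.4% or 63.7%. Relative to Acini, the members then gave 7, 7 and 9 higher and 21, 19 and 21 lower in Ducts, and 9, 7 and 9 higher and 18, 17 and 20 lower in yDucts.

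**Figure D2:**
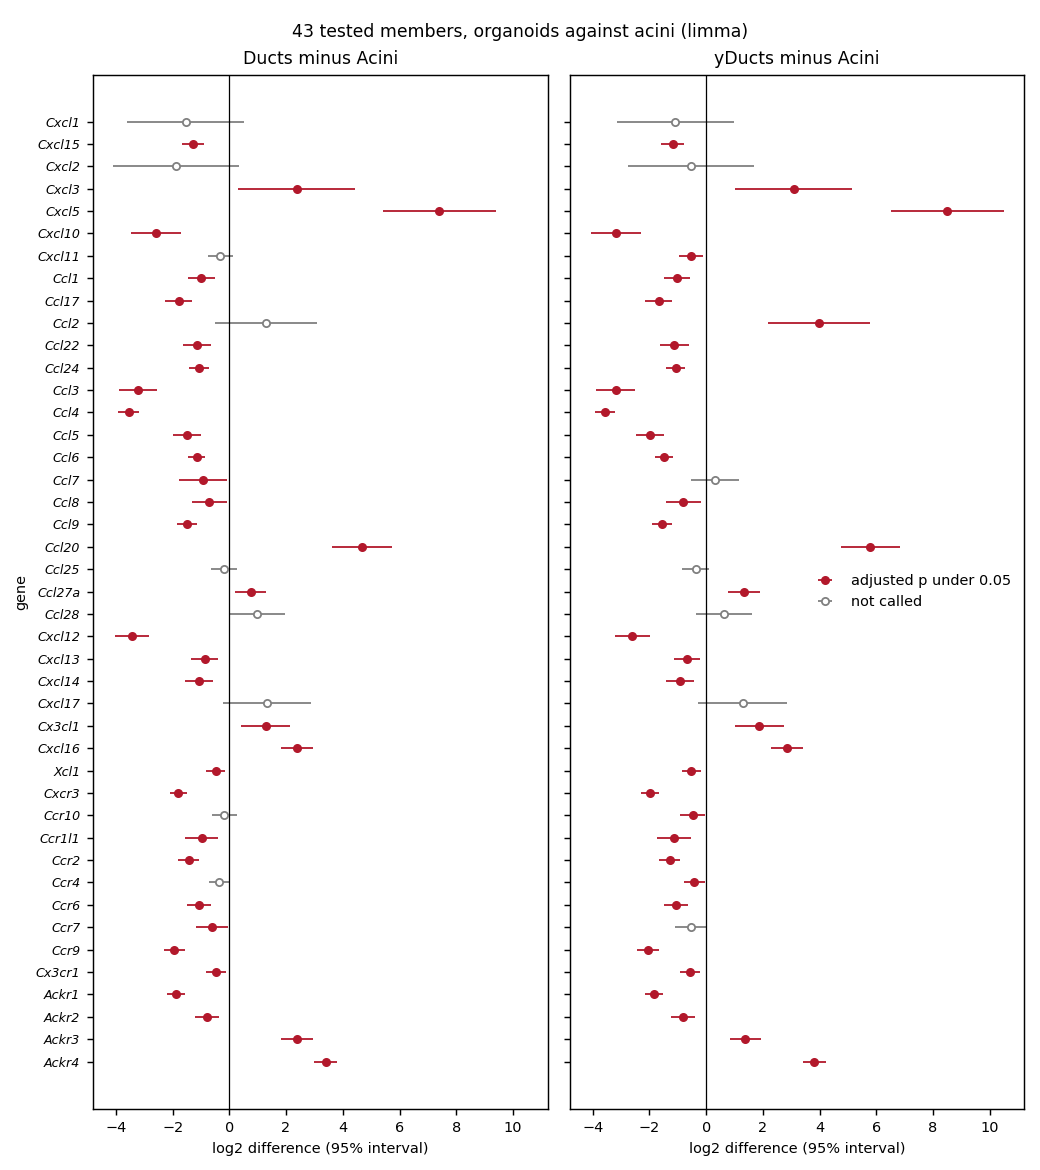
Log2 difference from Acini with its 95% interval (limma) for the 43 tested members in Ducts and in yDucts, 4 arrays a group. Filled points passed an adjusted p under 0.05. Cxcl5 is the rightmost in both, at 7.40 and 8.50, and Ccl4 the leftmost, at -3.55 and -3.56.

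Among the neutrophil-attracting ELR ligands, Cxcl5 and Cxcl3 rose in both kinds of organoid, Cxcl15 fell in both, and Cxcl1 and Cxcl2 were not called. Cxcl5, a ligand of Cxcr2 made by epithelial cells, read 3.29, 3.68, 3.53 and 2.38 on Acini A to D. On Ducts it read 12.44, 13.11, 8.57 and 8.37, and on yDucts 11.73, 12.50, 11.86 and 10.79. The Acini values were all under the 30th percentile of their arrays, and every organoid array was far above every Acini array. Cxcl5 was thus at least 119.6-fold higher in Ducts (log2 difference 7.40 ± 0.92 SE) and at least 256-fold higher in yDucts (8.50 ± 0.92). It passed the filter on low values through the organoid arrays alone, so that it was bound to read higher there and no p is given. Without Ducts C and D the difference in Ducts was 9.55, and without A and B it was 5.25.

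Cxcl3, a close relative of Cxcl1 and Cxcl2, was also under the percentile on all Acini arrays, at 2.65, 3.10, 3.25 and 2.37. It read 6.32, 7.99, 3.01 and 3.53 on Ducts, where C lay in the range of Acini and D just above it. It read 5.94, 7.45, 6.27 and 4.05 on yDucts, all above Acini. The difference was 2.37 ± 0.96 in Ducts (at least 2.81-fold) and 3.08 ± 0.96 in yDucts (at least 4.62-fold). Like Cxcl5, Cxcl3 passed the filter on low values through organoid arrays alone, so no p is given. The call in Ducts was lost without arrays A and B, where the difference was 0.43. It was also lost without any single one of Ducts A, Ducts B or the Acini arrays (1.44 to 2.51).

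Cxcl1 and Cxcl2, classical acute-phase neutrophil attractants, were already bright in Acini. Cxcl1 read 10.82, 10.89, 10.70 and 10.52 on Acini, 10.67, 12.07, 6.87 and 7.13 on Ducts, and 9.46, 10.94, 9.43 and 8.77 on yDucts. Cxcl2 read 9.46, 9.46, 9.52 and 9.24 on Acini, 9.79, 10.16, 5.11 and 5.15 on Ducts, and 8.73, 10.20, 8.82 and 7.83 on yDucts. In both genes Ducts A and B lay near or above Acini, Ducts C and D lay more than 3 units below, and yDucts A, C and D lay between, while yDucts B lay above every Acini array. The difference in Ducts was -1.55 for Cxcl1 (95% interval -3.61 to 0.51) and -1.87 for Cxcl2 (-4.09 to 0.35). Without Ducts C and D these became 0.64 and 0.56, and without A and B -3.73 and -4.29. In yDucts the difference of Cxcl1 was -1.08, not called. Another bright probe set of Cxcl1 gave -0.33 in Ducts and 0.24 in yDucts, with yDucts A and C in the range of Acini. One more gave -0.44 and -0.68. Cxcl15, known from lung epithelium, was 4.76 ± 0.38 in Acini, 3.48 ± 0.10 in Ducts and 3.57 ± 0.17 in yDucts (adjusted p = 3.44e-05 and 6.16e-05).

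**Figure D3:**
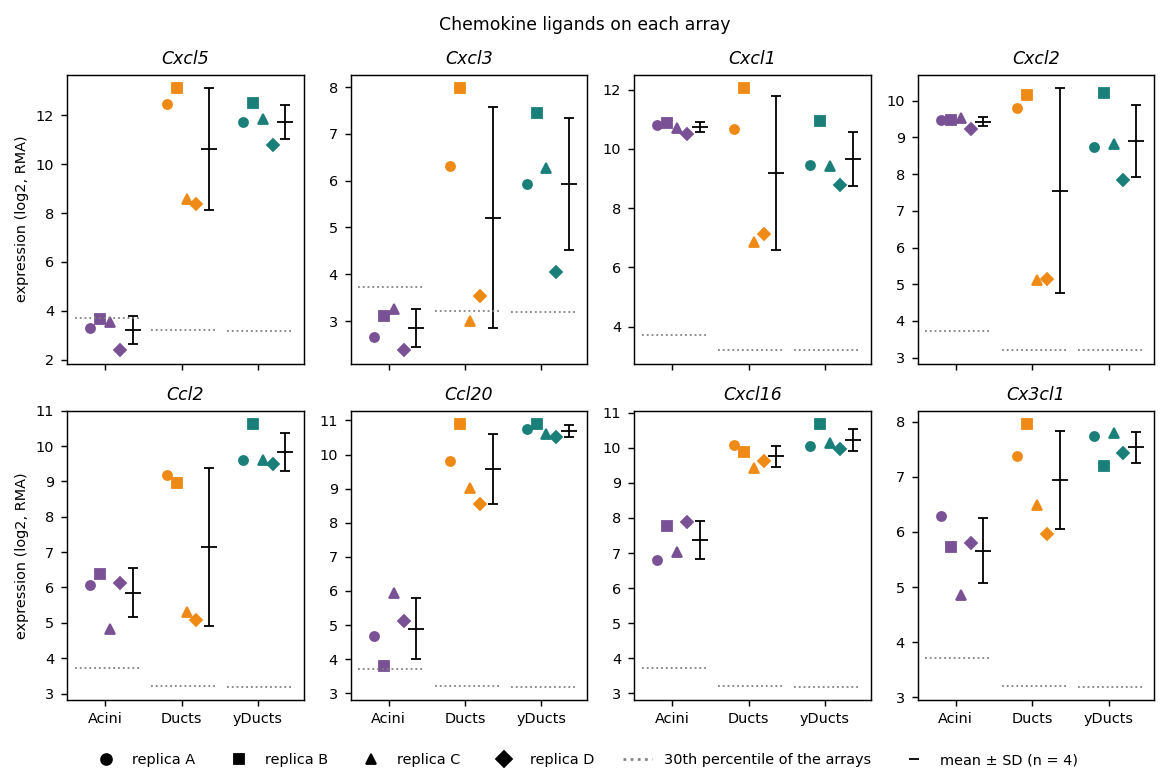
Log2 expression of 8 ligands on each array (symbols for replicas A to D, mean ± SD beside them, n = 4, separate y axes), with the 30th percentile of the arrays dotted. Cxcl5 and Ccl20 separate Acini from both organoid groups, whereas in Cxcl1, Cxcl2, Cxcl3 and Ccl2 the Ducts arrays fall apart into A and B against C and D.

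Of the interferon-inducible Cxcr3 ligands, Cxcl10 fell in both kinds of organoid. It read 6.07, 7.42, 7.59 and 6.19 on Acini, 3.51, 3.90, 5.02 and 4.43 on Ducts, and 3.98, 2.93, 3.70 and 3.89 on yDucts. Every organoid array was below every Acini array, by -2.60 ± 0.41 in Ducts (adjusted p = 7.52e-05) and -3.19 ± 0.41 in yDucts (adjusted p = 1.28e-05). Cxcl11 was called lower in yDucts only (-0.53, adjusted p = 0.027; in Ducts -0.32, adjusted p = 0.159), and its sign in yDucts turned under cyclic loess (0.05). Cxcl9 was too dim to be tested, at 3.58 to 4.20 in Acini and 2.58 to 2.99 in organoids.

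Of the 14 inflammatory CC ligands, 12 were tested: 11 fell and none rose in Ducts, while 10 fell and 1 rose in yDucts. Among all tested genes 33.1% fell and 42.7% rose in Ducts, and 32.6% and 43.6% did so in yDucts. The inflammatory CC ligand that rose was Ccl2, the main attractant of monocytes. It read 6.08, 6.38, 4.82 and 6.13 on Acini, 9.19, 8.95, 5.32 and 5.08 on Ducts, and 9.60, 10.63, 9.60 and 9.49 on yDucts. All yDucts arrays were above all Acini and all Ducts arrays, and Ducts were split, with C and D in the range of Acini. The difference was 3.98 ± 0.83 in yDucts (15.8-fold, adjusted p = 0.000797) and 1.28 ± 0.83 in Ducts (adjusted p = 0.176, 95% interval -0.52 to 3.09). In Ducts it was 3.22 without C and D, 1.97 without D alone, and -0.65 without A and B. Ccl7, its neighbour on chromosome 11 and also a Ccr2 ligand, was 5.18 ± 0.42 in Acini, 4.25 ± 0.94 in Ducts and 5.50 ± 0.34 in yDucts. It was called lower in Ducts only (-0.93, adjusted p = 0.043), a call lost without Ducts C and D (-0.14, adjusted p = 0.657), under cyclic loess (-0.90, adjusted p = 0.0631) and with centring (-0.72, adjusted p = 0.108).

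Among the inflammatory CC ligands, the largest falls were in Ccl4 and Ccl3, macrophage products that sit next to each other on chromosome 11. Ccl4 read 7.14, 7.74, 7.67 and 7.86 on Acini, 3.92, 4.17, 4.15 and 3.95 on Ducts, and 4.05, 4.19, 3.81 and 4.10 on yDucts. Ccl3 read 5.52, 6.45, 6.37 and 4.65 on Acini, 2.52, 2.51, 2.42 and 2.64 on Ducts, and 2.33, 2.54, 2.71 and 2.62 on yDucts. Both genes were tight in the organoids, where Ccl3 was under the percentile on every array. Ccl4 fell by 3.55 in Ducts (11.8-fold, adjusted p = 2.42e-09) and by 3.56 in yDucts (11.8-fold, adjusted p = 2.42e-09), and Ccl3 was at least 5.81-fold lower in Ducts and at least 5.87-fold lower in yDucts. Ccl3 passed the filter on low values through the Acini arrays alone, so that it was bound to read lower in organoids and no p is given. The T cell and monocyte attractant Ccl5 went from 6.18 ± 0.38 to 4.68 ± 0.41 and 4.20 ± 0.18, and the Ccr4 ligand Ccl17 from 5.79 ± 0.46 to 4.0 ± 0.19 and 4.11 ± 0.26. The other falls, of Ccl1, Ccl6, Ccl8, Ccl9, Ccl22 and Ccl24, ran from -0.71 to -1.50 in Ducts and from -0.80 to -1.56 in yDucts. That of Ccl8, the smallest, was not called under any of the 3 scalings. Ccl11 (eotaxin) failed the filter on low values, being above the percentile only on Acini B, C and D: it read 3.71, 6.28, 5.46 and 4.52 on Acini and 2.46 to 2.78 on organoids. Leukocyte markers fell in the same comparisons, as given above; their part in these falls was not tested.

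The homeostatic, epithelial and mucosal ligands went in different directions: 2 of 8 rose, 3 fell and 3 were not called, in Ducts and in yDucts alike. Among all tested genes 42.7% rose and 33.1% fell in Ducts, and 43.6% and 32.6% did so in yDucts. Ccl20, an epithelial ligand that attracts dendritic cells and T cells through Ccr6, rose most among these ligands. It read 4.68, 3.81, 5.95 and 5.13 on Acini, 9.81, 10.90, 9.02 and 8.56 on Ducts, and 10.76, 10.88, 10.60 and 10.50 on yDucts. No organoid array came within 2 units of Acini, and the yDucts arrays lay within 0.38 of each other. The rise was 4.68 ± 0.48 in Ducts (25.6-fold, adjusted p = 2.08e-06) and 5.79 ± 0.48 in yDucts (55.4-fold, adjusted p = 3.20e-07). In Ducts it was 5.46 without C and D and 3.90 without A and B, called both times. Ccl27a, a ligand of Ccr10 on skin-homing T cells, rose from 4.35 ± 0.52 to 5.09 ± 0.44 (adjusted p = 0.0184) and 5.68 ± 0.06 (adjusted p = 0.000435). In Ducts this was not called without A and B (0.45, adjusted p = 0.166).

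Cxcl12, the stromal ligand of Cxcr4 and Ackr3, fell most in this group. It read 7.43, 6.85, 6.40 and 7.27 on Acini, 3.61, 3.25, 3.56 and 3.81 on Ducts, and 4.03, 5.17, 4.37 and 3.98 on yDucts. The 3 groups did not overlap, with Ducts lowest. The fall was -3.43 ± 0.28 in Ducts (10.8-fold, adjusted p = 2.74e-07) and -2.60 ± 0.28 in yDucts (6.06-fold, adjusted p = 3.00e-06). All 12 stromal markers fell beside it, and their part was not tested. Cxcl13, the follicular B cell attractant, and Cxcl14, an epithelial and stromal ligand, were called lower by 0.67 to 1.07 units, calls that both lost under cyclic loess. Quantile scaling also ended the calls on Cxcl13 and that on Cxcl14 in yDucts (-0.49, adjusted p = 0.129).

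Ccl28 and Cxcl17, made by mucosal epithelia, were not called in either comparison. Ccl28 read 5.86, 5.37, 4.90 and 5.44 on Acini, 6.80, 7.87, 5.46 and 5.28 on Ducts, and 6.19, 6.15, 6.02 and 5.78 on yDucts. Cxcl17 read 5.01, 6.35, 5.75 and 4.97 on Acini, 6.40, 9.57, 5.98 and 5.46 on Ducts, and 6.91, 5.90, 6.97 and 7.43 on yDucts. In both genes Ducts B was the brightest of the 12 arrays. Without Ducts C and D the difference of Ducts from Acini was 1.94 for Ccl28 and 2.46 for Cxcl17. Without A and B it was -0.02 and 0.20. A second probe set of Ccl28 ran the other way, with means of 6.09 for Acini, 4.92 for Ducts and 4.76 for yDucts, so the direction of this gene is not settled. Ccl25, the thymic and intestinal ligand of Ccr9, was also not called, at 5.38 ± 0.49, 5.19 ± 0.17 and 5.0 ± 0.14, and its second probe set read higher in organoids, by 0.68 in Ducts and 0.62 in yDucts.

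Both membrane-anchored ligands rose in both kinds of organoid. Cxcl16, a scavenger receptor and ligand of Cxcr6, read 6.81, 7.78, 7.02 and 7.89 on Acini, 10.08, 9.89, 9.42 and 9.61 on Ducts, and 10.06, 10.68, 10.14 and 9.97 on yDucts. The Ducts split was small here, and all organoid arrays exceeded all Acini arrays. The rise was 2.38 ± 0.26 in Ducts (5.19-fold, adjusted p = 3.66e-06) and 2.84 ± 0.26 in yDucts (7.15-fold, adjusted p = 7.54e-07), and a second probe set rose by more, 4.51 and 4.83. Cx3cl1 (fractalkine), the only ligand of Cx3cr1, rose by 1.28 ± 0.40 in Ducts (adjusted p = 0.0101) and 1.88 ± 0.40 in yDucts (adjusted p = 0.000839). In Ducts the call was lost after quantile scaling (0.71, adjusted p = 0.172), after cyclic loess (0.42, adjusted p = 0.408) and without A and B (0.56, adjusted p = 0.149), and in yDucts after cyclic loess (1.02, adjusted p = 0.0526). Another probe set of Cx3cl1 read lower in organoids, by 0.68 in Ducts and 0.60 in yDucts. The XC ligand Xcl1, a product of T and NK cells, was 0.49 and 0.53 units lower, calls lost under all 3 scalings.

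None of the tested signalling receptors rose, against 42.7% of all tested genes in Ducts and 43.6% in yDucts. Of 5 CXC receptors only Cxcr3, the receptor of Cxcl9, Cxcl10 and Cxcl11 on T cells, was tested, and it fell from an Acini level of 5.26 ± 0.20 to 3.46 ± 0.11 for Ducts and 3.28 ± 0.15 for yDucts (adjusted p = 1.99e-07 and 8.76e-08). Cxcr2, the receptor for the ELR ligands, was at or below the 30th percentile on all 12 arrays, as were Cxcr5 and Cxcr6. Cxcr4, the receptor of Cxcl12, was above it only on Acini A, B and C (3.08 to 4.06 in Acini, 2.30 to 2.91 in organoids).

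Of 10 CC receptors, 7 were tested. In Ducts 5 fell and in yDucts 6, against 33.1% and 32.6% of all tested genes. Ccr9, a gut-homing receptor, went from 4.69 ± 0.40 to 2.75 ± 0.05 and 2.63 ± 0.10, at least 2.78-fold and at least 2.81-fold lower, and like Ccl3 it passed the filter through Acini alone. The other probe sets of Ccr9 were dimmer, above the percentile on at most 2 arrays. They differed from Acini by -0.175 to -0.97 in Ducts and by -0.255 to -0.98 in yDucts. Ccr2, the receptor of Ccl2 and Ccl7, went from 5.50 ± 0.18 to 4.06 ± 0.26 and 4.20 ± 0.25 (adjusted p = 9.12e-06 and 2.34e-05), and Ccr6, the receptor of Ccl20, from 5.12 ± 0.36 to 4.06 ± 0.24 and 4.06 ± 0.18 (adjusted p = 0.000271 and 0.000256). Thus for Ccl2 and Ccr2 in yDucts, and for Ccl20 and Ccr6 in both kinds of organoid, ligand and receptor moved in opposite directions against Acini. For Ccr2 this rests on its brightest probe set. The other probe sets of Ccr2 were above the percentile on at most 1 array. They also read lower than in Acini, by -0.70 to -0.85 in Ducts and -0.685 to -0.83 in yDucts. Calls on Ccr4 and Ccr10 in yDucts (-0.41 and -0.48), on Ccr7 in Ducts (-0.61) and on Ccr1l1 and the fractalkine receptor Cx3cr1 in both (-0.46 to -1.12) were lost under quantile scaling and under cyclic loess. Ccr4 changed sign in yDucts under both (0.08 and 0.16), and Cx3cr1 changed sign in Ducts under cyclic loess (0.07). Ccr1, Ccr3 and Ccr8 were not tested.

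The atypical receptors were split, with Ackr3 and Ackr4 higher and Ackr1 and Ackr2 lower in both kinds of organoid. Ackr4, which clears Ccl19, Ccl21, Ccl25 and Ccl20, read 3.95, 4.18, 3.89 and 3.59 on Acini, 7.04, 6.95, 7.63 and 7.58 on Ducts, and 7.95, 7.72, 7.58 and 7.62 on yDucts. Ackr3, the scavenger of Cxcl12, read 5.98, 6.21, 6.17 and 5.44 on Acini, 8.33, 7.97, 8.62 and 8.42 on Ducts, and 7.34, 6.61, 7.79 and 7.60 on yDucts. For Ackr3 the 3 groups were apart, Ducts highest and Acini lowest. Ackr4 rose by 3.40 ± 0.19 in Ducts (10.5-fold, adjusted p = 1.12e-08) and 3.81 ± 0.19 in yDucts (14.1-fold, adjusted p = 3.90e-09). A second probe set of Ackr4 gave 3.29 and 3.72, but another gave -0.78 and -0.89. Ackr3 rose by 2.38 ± 0.26 in Ducts (5.22-fold, adjusted p = 3.20e-06) and 1.38 ± 0.26 in yDucts (2.61-fold, adjusted p = 0.000324), the latter not called after cyclic loess (0.42, adjusted p = 0.158). Ackr1, the Duffy antigen of venular endothelium and red cells, was 6.80 ± 0.22 in Acini, 4.91 ± 0.14 in Ducts and 4.96 ± 0.08 in yDucts (adjusted p = 1.47e-07 and 1.84e-07), beside the fall of all tested endothelial markers. Ackr2, the scavenger of inflammatory CC ligands, fell by 0.80 and 0.81, calls lost under cyclic loess.

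**Figure D4:**
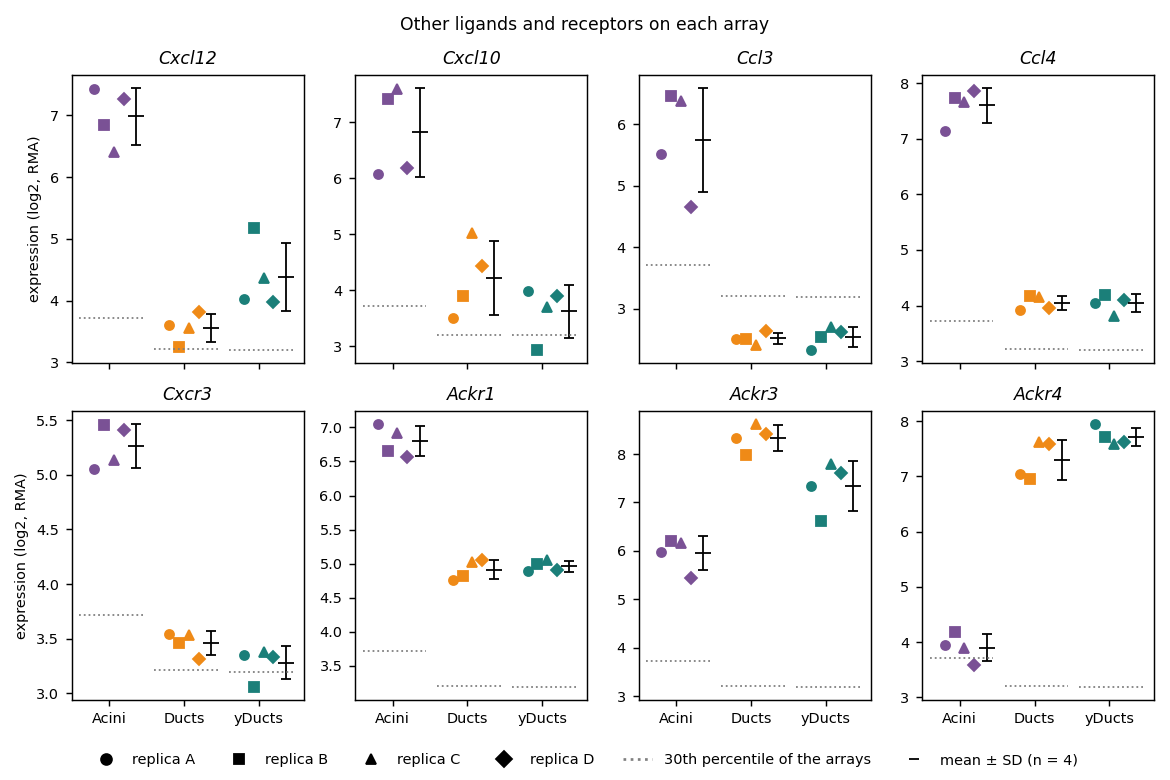
Log2 expression of 4 ligands that were lower in organoids (Cxcl12, Cxcl10, Ccl3, Ccl4) and of 4 receptors (Cxcr3, Ackr1, Ackr3, Ackr4) on each array, with symbols, mean ± SD (n = 4) and the dotted 30th percentile as in the plot of ligands. The first 6 drop from Acini to both organoid groups, Ackr3 and Ackr4 rise, and the 4 Ducts arrays lie within 2 units of each other in each gene.

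The comparison of yDucts with Ducts asks how far organoids of acinar origin resemble native ones. Of the 43 members, 0 were called either way (limma), against 3.14% of all tested genes (2.15% higher and 0.987% lower). At an unadjusted p under 0.05 there were 8 members (Ackr3, Ccl2, Ccl7, Cxcl12, Ccl6, Ccl20, Ccl27a and Ackr4), against 13.8% of all genes, and the groups did not overlap in 6 (14.0%), against 12.3%. The median absolute difference of the members was 0.18. Ackr3 came nearest to a call, lower in yDucts by 1.0 ± 0.26 (adjusted p = 0.0582), with every yDucts array (6.61 to 7.79) below every Ducts array (7.97 to 8.62). Ccl2 had the largest difference, 2.69 ± 0.83 higher in yDucts (adjusted p = 0.122), and Ccl7 was 1.25 ± 0.39 higher (adjusted p = 0.123). Cxcl12 was 0.83 ± 0.28 higher in yDucts (adjusted p = 0.163).

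Wide intervals limit this comparison for the ligands that split within Ducts. The 95% interval of yDucts minus Ducts was 0.89 to 4.50 for Ccl2, -0.90 to 3.09 for Cxcl5, -1.36 to 2.79 for Cxcl3, -1.59 to 2.52 for Cxcl1 and -0.88 to 3.56 for Cxcl2, so that for the last 4 the interval held differences of several fold in yDucts' favour and smaller ones the other way. Intervals were narrow for Ccl4 (-0.38 to 0.36), Ackr1 (-0.26 to 0.36), Ccl24 (-0.34 to 0.35) and Cxcr3 (-0.49 to 0.13). With Ducts A and B left out, 8 members were called higher in yDucts (Ccl2 4.63, Cxcl2 3.77, Cxcl5 3.25, Cxcl3 2.66, Cxcl1 2.65, Ccl7 2.04, Ccl20 1.89 and Cx3cl1 1.31) and Ackr3 was called lower (-1.18). Calls over all genes rose as well, to 1293 higher and 889 lower of 14912 tested, from 322 and 148 of 14991 with all arrays. With Ducts C and D left out, 0 of 42 were called (limma; 7 at an unadjusted p under 0.05), and Cxcl1, Cxcl2, Cxcl3 and Cxcl5 read lower in yDucts, by 1.72, 1.08, 1.23 and 1.06 units. Single arrays mattered too: without Ducts B alone 3 members were called higher and 1 lower, without Ducts A alone 1 higher, and without Acini D alone 1 lower. Within yDucts, only Cxcl1, Cxcl2 and Cxcl3 spanned more than 2 units, with B highest and D lowest in all 3 (0.947% of all genes spanned as much).

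**Figure D5:**
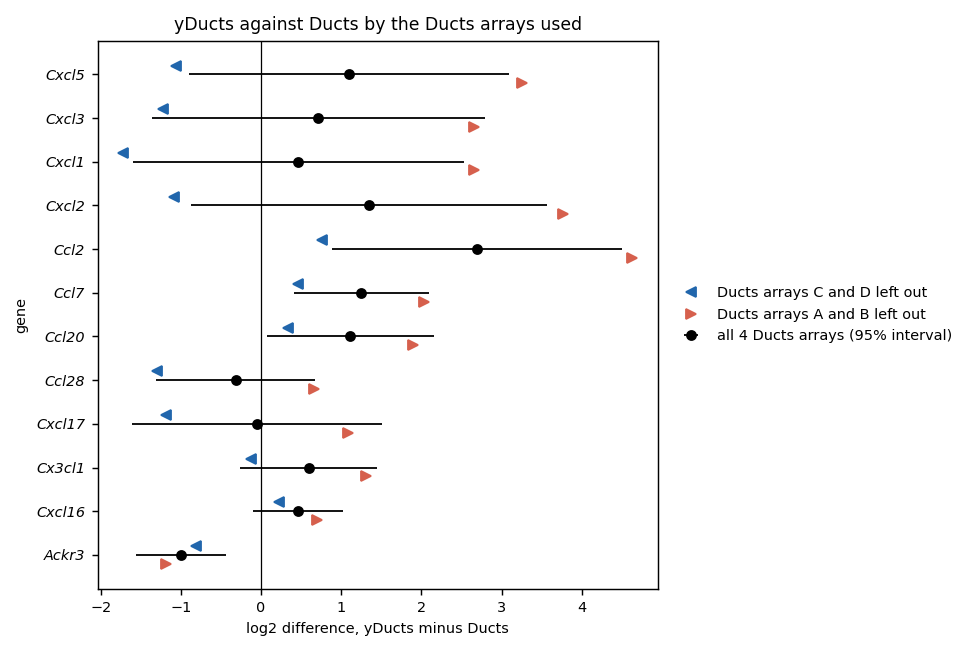
Log2 difference of yDucts minus Ducts for 12 members with all 4 Ducts arrays (circles, 95% interval), without Ducts C and D (left-pointing triangles) and without Ducts A and B (right-pointing triangles). Cxcl5, Cxcl3, Cxcl1 and Cxcl2 change sign with the choice of arrays, Ccl2 stays above 0 from 0.76 to 4.63, and Ackr3 stays below 0.

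Genes around the family were read from lists. Against Acini, 42.7% of all tested genes were higher and 33.1% lower in Ducts, and 43.6% and 32.6% in yDucts. A further list held 11 genes outside the name rule, both family members and looser relatives such as Mif and the Cmtm genes. Of these 11, 5 were higher and 4 lower in Ducts, and 4 and 2 in yDucts. Among them the cytokine Mif, a noncanonical ligand of Cxcr2 and Cxcr4, was 2.12 higher in Ducts and 2.07 higher in yDucts (adjusted p = 4.53e-07 and 5.46e-07). Ccrl2, a receptor-like protein that presents chemerin, and Cmtm7 were called higher in yDucts than in Ducts (1.93, adjusted p = 0.00786, and 1.68, adjusted p = 0.00146). Ccrl2 read 5.63, 5.40, 4.51 and 4.36 on Ducts and 7.52, 6.46, 7.15 and 6.49 on yDucts, so the groups did not overlap even against Ducts A and B.

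Of 31 genes of NF-kB signalling and of cytokines that accompany chemokine induction, 10 were higher and 5 lower in Ducts, and 11 and 4 in yDucts. The NF-kB and cytokine genes that drive or accompany chemokine induction were thus higher in 32.3% and 35.5%, below the 42.7% and 43.6% among all tested genes. Lcn2, the siderophore-binding lipocalin, followed Cxcl5: it read 3.59 to 4.68 on Acini, 13.31, 13.76, 8.09 and 7.36 on Ducts and 11.48 to 13.47 on yDucts (6.52 and 8.60 higher, adjusted p = 0.000321 and 3.12e-05). Il1rn, the interleukin-1 receptor antagonist, rose by 3.37 and 5.14, and Nfkbie, an NF-kB inhibitor, by 2.97 and 4.76. Il6, an inflammatory cytokine, was at or below the percentile on all organoid arrays and was at least 13.0-fold lower in Ducts and at least 13.1-fold lower in yDucts, having passed the filter through Acini alone. Of the 31, 15 spanned more than 2 units within Ducts, against 5.48% of all tested genes, and 14 of them had A and B above C and D. Against Ducts, Nfkbie (1.79, adjusted p = 0.016) and Irak3, an inhibitor of Toll-like and interleukin-1 receptor signalling (1.38, adjusted p = 0.0341), were the 2 called higher in yDucts. Among all tested genes 2.15% were called higher there. Of 19 G protein and signalling genes downstream of chemokine receptors, 8 were higher and 7 lower in Ducts, and 8 and 8 in yDucts. Over all tested genes 42.7% were higher and 33.1% lower in Ducts, and 43.6% and 32.6% in yDucts. Between yDucts and Ducts 0 of the signalling genes were called (limma), with 4 at an unadjusted p under 0.05, against 3.14% and 13.8% of all tested genes. Of the leukocyte markers, 3 went against the fall of their list in Ducts, Cd14 (3.46 higher), Cd68 (1.41) and S100a9 (2.21), the last 2 named after their values were seen. In yDucts Cd14 was 5.63 higher and Cd68 1.26 higher (adjusted p = 0.0192), and S100a9 was not called (-0.75, adjusted p = 0.183). Cd14, the lipopolysaccharide co-receptor, read 11.91, 12.50, 8.68 and 8.07 on Ducts, with A and B above C and D as in Cxcl1, Cxcl2, Cxcl3 and Cxcl5.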

How the data were processed

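Expression was measured on 12 Affymetrix mouse genome arrays. The values the authors deposited are log2 intensities, which the submitters' processing notes attribute to RMA and which carry 2 decimals; its version, the chip definition and whether all 12 arrays were normalised together are not stated there or in the methods text used here. Of 45101 probe sets, 34958 had 1 gene symbol in the platform annotation, 932 had several and 9211 had none. Genes were represented by the brightest of their single-symbol probe sets, and tested where above the 30th percentile of the array on at least 4 arrays. Groups were compared with limma 3.58.1 in R 4.3.3, as group means over all 12 arrays with 3 contrasts and Benjamini-Hochberg adjustment over the 14991 genes tested (called at adjusted p under 0.05). The methods text used here names no test for these arrays. Differences are log2, with SE or a 95% interval from the fit. Where all arrays of a group were at or below the percentile, a fold is given as a lower bound against that percentile. The number of arrays limits the precision.

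Values on every array are given for the 10 members with the largest called differences in a comparison, for Cxcl5 and Ccl2, and for members spanning more than 2 units within a group; genes outside the family come from lists, at most 4 per list and comparison by size of the called difference, and exceptions are said to be so. Ccrl2, Cmtm7, Nfkbie, Irak3, Cd68 and S100a9 were named for being among few called. The members, lists and rules were chosen with earlier results of these data known. Same-lettered replicas deviated together in 2 of 12 pairs (correlation over 0.1), so letters were not taken as pairs. Alternatives were other scalings, filters, probe set choices, array weights, a replicate block and leaving out arrays. The scripts were tested on simulated data. Promoter windows are from RefSeq (GRCm38.p6), where 40 of the 53 members had one.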

Additional observations from a re-analysis of the deposited data

Results flagged for a closer look

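In 4 of 129 groups (43 tested members in 3 groups of 4 arrays), 1 array stood apart from the other 3 by Dixon's criterion, where chance marks about 5% of groups (6.45 of 129). Ccl2 read 10.63 on yDucts B against 9.49 to 9.60 on the others. Ccl8 read 4.35 on Ducts B against 3.75 to 3.82. Ccr2 read 4.58 on yDucts B against 4.02 to 4.11, and Cxcr3 read 3.06 on yDucts B against 3.33 to 3.38.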

How the results depend on the processing

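Counts of called members kept within 1.5 times their value under the 23 alternatives, with these exceptions, whose cause was not tested unless the setting tests fewer genes. Higher in Ducts than in Acini were 5 with array weights and 5 without Ducts A and B, against 8. Lower in Ducts were 12 with the filter at the 50th percentile (27 members tested), against 26, and lower in yDucts 12 with that filter and 17 with cyclic loess, against 27. Between yDucts and Ducts, where 0 were called, array weights called 12 higher and 8 lower (3150 and 3033 of all genes, against 322 and 148). Without Ducts A and B there were 8 and 1 (1293 and 889 of all genes). Cyclic loess and the mean of all probe sets each gave 1 lower. Leaving out 1 array in turn gave 0 to 3 higher and 0 to 1 lower. Among the members given array by array, directions turned as follows. In Ducts minus Acini, Ccl2 was -0.25 with array weights and -0.65 without Ducts A and B. Ccl28 was -0.028 with the mean of probe sets, -1.18 with the most variable probe set and -0.022 without Ducts A and B, and without Ducts C and D Cxcl1 was 0.64 and Cxcl2 0.56. In yDucts minus Acini, Ccl28 was -0.30 with the mean of probe sets and -1.33 with the most variable one. In yDucts minus Ducts, leaving out Ducts C and D gave -1.72 for Cxcl1, -1.08 for Cxcl2, -1.23 for Cxcl3 and -1.05 for Cxcl5. There Ccl28 was 0.43 with array weights and 0.67 without Ducts A and B, and Cxcl17 was 0.94 and 1.08. Leaving out 1 array in turn gave -0.68 to 0.19 for Ccl28 (above 0 without Ducts B), -0.51 to 0.86 for Cxcl17 (without Ducts B or yDucts B), -0.31 to 1.43 for Cxcl1 (below 0 without Ducts C or D) and -0.019 to 1.64 for Cxcl3 (without Ducts C). Of the other members, against Acini, the sign also turned under at least one alternative for Ccl25 (up to 0.68 in Ducts and 0.62 in yDucts), Ccr10 (0.079), Ccr4 (0.19), Cxcl11 (0.24) and Cx3cr1 (0.068) in Ducts, and for Ccr4 (0.16), Ccr7 (0.046) and Cxcl11 (0.045) in yDucts. With the replicate letter as a block, 9 members were higher and 25 lower in Ducts, 9 and 25 in yDucts, and 0 were called between yDucts and Ducts; with it Ccl28 Ducts minus Acini passed (0.96, adjusted p = 0.0423).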

Other observations

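Probe sets that the platform annotation gives several symbols lay outside the 53 genes, and 4 of them hold a chemokine. One for Ccl27a and Ccl27b read 5.68 ± 0.79 in Acini, 6.53 ± 0.27 in Ducts and 6.76 ± 0.14 in yDucts (log2, mean ± SD, n = 4), and a second one 5.27 ± 0.44, 6.0 ± 0.39 and 6.35 ± 0.12. One for Ccl21 genes, ligands of Ccr7 in lymphatic vessels, read 5.64 ± 0.85, 4.49 ± 0.08 and 4.33 ± 0.18. One for Ccl19, the other Ccr7 ligand, read 4.67 ± 0.29, 3.24 ± 0.10 and 3.31 ± 0.03. These were not tested, and near-identical gene copies share them.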
